A study of Mus musculus with 54 samples.

Results

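Ribosome biogenesis genes encode the machinery that transcribes, cuts, modifies and assembles the RNA and proteins of the ribosome. The 38 genes described here were taken by name from the count table, in which all 38 of them were found among 23154 genes. They comprised 5 nucleolar proteins of several functions, 3 core proteins of the box C/D small nucleolar ribonucleoproteins (snoRNPs), 4 core proteins of the box H/ACA snoRNPs, 4 genes of RNA polymerase I and its factors, 11 assembly factors of the large ribosomal subunit and 11 of the small subunit. All 38 passed the filter on low counts in both fits described below.

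Ribosomes are built in the nucleolus, where RNA polymerase I transcribes the ribosomal RNA precursor, snoRNPs guide its chemical modification, and assembly factors cut, fold and export the subunits. Resting haematopoietic stem cells are known for a low rate of protein synthesis, and dividing progenitors for a higher one. The transcription factor MYC, which binds the E-box sequence CACGTG, is a known activator of many of these genes.

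Single cells of C57BL/6 mice aged 8 to 10 weeks were sequenced in 54 libraries, made with a version of Smart-seq2 that reads the 3' ends of transcripts. Of the annotated cells, 1031 were collected after transplantation and 1270 were steady-state cells from 28 sorting gates. Transplanted cells (labelled Tx) came from bone marrow, spleen or both, on day 1 (3 libraries, 61 cells), day 3 (3 libraries, 125 cells), day 5 (7 libraries, 336 cells) and day 7 (10 libraries, 389 cells). Which cells were transplanted, into which recipients and after which conditioning is not given in the sources used here. The steady-state classes were committed progenitors (the CMP, GMP and MEP gates, 2 libraries, 65 cells), multipotent progenitors (iMPP, 9 gates, 17 libraries, 508 cells), common lymphoid progenitors (CLP, 2 libraries, 30 cells), lymphoid cells (B, NK, CD4 T and CD8 T cells, 4 libraries, 167 cells), mature myeloid cells (granulocytes, monocytes and macrophages, 3 libraries, 106 cells), megakaryocytes (MK, 2 libraries, 19 cells) and erythroblasts (EryA and EryB, 3 libraries, 70 cells). The reference throughout was the class of stem cell gates (iHSC, made of ESLAM, ESLAMSK, LT_HSC, Fraction I and Fraction III, 12 libraries, 305 cells). No genotype or treatment other than transplantation was labelled. The labels of L4 and L49 named other populations than the cell annotation followed here.

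The promoters of these genes were read from RefSeq windows on GRCm38.p6, from 250 bases before to 50 bases after each start, and 34 of the 38 genes had a window. The 4 upstream stretches below, each 250 bases long, are shown because Ncl and Nolc1 are the members whose levels on day 7 the results turn on, while Imp4 and Nop2 hold the MYC E-box (CACGTG, in capitals) before the start. They lie at chr1:86359456-86359705 on the minus strand (Ncl), chr19:46075597-46075846 on the plus strand (Nolc1), chr1:34439579-34439828 on the plus strand (Imp4) and chr6:125131633-125131882 on the plus strand (Nop2), and each is written 5' to 3' on the gene's strand.
Ncl: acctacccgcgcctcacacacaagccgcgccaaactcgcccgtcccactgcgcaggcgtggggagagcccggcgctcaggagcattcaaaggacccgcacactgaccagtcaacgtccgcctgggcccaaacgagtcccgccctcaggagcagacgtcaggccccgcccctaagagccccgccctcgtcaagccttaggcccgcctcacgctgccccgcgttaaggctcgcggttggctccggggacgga
Nolc1: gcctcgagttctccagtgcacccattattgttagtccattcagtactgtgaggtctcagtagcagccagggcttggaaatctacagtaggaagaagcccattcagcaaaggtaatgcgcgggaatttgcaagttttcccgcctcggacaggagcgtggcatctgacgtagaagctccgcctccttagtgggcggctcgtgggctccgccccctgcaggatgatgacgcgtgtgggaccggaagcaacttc
Imp4: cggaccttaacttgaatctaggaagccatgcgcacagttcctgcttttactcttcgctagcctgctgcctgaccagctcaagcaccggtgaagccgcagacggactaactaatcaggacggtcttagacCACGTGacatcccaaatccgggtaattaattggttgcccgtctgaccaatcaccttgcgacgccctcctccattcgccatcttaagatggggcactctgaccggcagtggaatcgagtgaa
Nop2: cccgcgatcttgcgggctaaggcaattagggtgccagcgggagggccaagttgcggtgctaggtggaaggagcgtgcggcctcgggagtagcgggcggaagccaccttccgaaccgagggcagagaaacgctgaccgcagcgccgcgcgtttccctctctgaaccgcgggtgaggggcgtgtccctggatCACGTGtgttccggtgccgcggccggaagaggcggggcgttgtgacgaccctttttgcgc
The next 2 stretches of 30 bases show the same motif after the start, in Pno1 (chr11:17211540-17211569, minus strand) and Mybbp1a (chr11:72441347-72441376, plus strand).
Pno1: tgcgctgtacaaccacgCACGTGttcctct
Mybbp1a: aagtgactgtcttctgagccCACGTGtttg
The motif, which reads the same on both strands, was present in 10 of the 42 windows of these genes (23.8%) and in 2349 of 32851 windows of all genes (7.15%). Counted from the start, its first base lay at -121 in Imp4, -60 in Nop2 and -215 in Rrn3. In the other 7 genes it lay after the start, at 3 in Pes1, 18 in Wdr43, 24 in Nle1, 25 in Tsr1, 29 in Ltv1, 38 in Pno1 and 41 in Mybbp1a. Of the genes with the motif, Imp4, Pno1 and Mybbp1a were called higher on day 7, and the others were not. The windows of Ncl and Nolc1 did not contain these letters, and both genes were called higher on day 7. A match describes the sequence and not binding, and windows of 1 gene can overlap.

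Levels are given as counts scaled to 1000000 (CPM) over the summed cells of a group in a library, and the library is the replicate. Library totals ranged from 517741 to 30433157 counts. Single annotated cells held 20013 to 1943315 counts. The median count per cell differed between groups, at 94894 ± 55512 in day 1 libraries, 111578 ± 39124 in day 3, 238916 ± 106482 in day 5 and 329256 ± 117145 in day 7, against 157202 ± 68648 in iHSC libraries (SD). Neutrophil marker genes (8 genes) stood apart in some libraries, with 148164 CPM in day 1 library L87 and about 29200 CPM in iHSC libraries L1 and L54, against an iHSC median of 119 CPM. They also made up 89424 to 235606 CPM in the erythroblast libraries, where erythroid markers summed to only 1881 to 5742 CPM and globin genes were at or near 0, and 54336 and 242843 CPM in the MK libraries. Plasma cell markers summed to 12634 CPM in iHSC library L54, 8921 in L55, 8561 in L76 and 4252 in L74. The other iHSC libraries had 577 CPM or less. L55, L74 and L76 were not left out together. The part of these cells in the results was not tested beyond leaving libraries or cell types out. HSC markers (10 genes) averaged 1465 ± 428 CPM in iHSC, so that gate class carried its defining genes.

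At steady state, the summed level of the 38 genes was highest in the committed gates CMP and MEP and lowest in granulocytes, with the third committed gate, GMP, just under the multipotent gate MPP2. It was 12311 CPM in CMP, 11540 CPM in MEP and 8737 CPM in GMP (1 library each). Among the multipotent gates it ran from 8792 ± 350 CPM in MPP2 (SD, n = 3) through 8437 ± 1041 in MPP3 (n = 2), 7936 ± 1362 in HPC3 (n = 3), 7642 ± 1688 in MPP1 (n = 2), 7475 ± 574 in HPC2 (n = 3), 7443 ± 335 in LMPP (n = 2), 7064 ± 532 in ST_HSC (n = 2) and 6834 ± 626 in Fraction II (n = 2) to 6685 ± 1082 in MPP4 (n = 3). Neighbouring gates in this order differed by less than the larger of their SDs. The mean of each stem cell gate lay below that of every multipotent gate, at 5761 ± 910 CPM in ESLAMSK (n = 3), 5720 ± 1140 in LT_HSC (n = 2), 5571 ± 444 in ESLAM (n = 2), 5332 ± 226 in Fraction I (n = 3) and 4648 ± 1578 in Fraction III (n = 5). Fraction III had the widest range of the stem cell gates, from 2963 CPM in L54 to 7222 CPM in L49.

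CLP, at 4672 ± 99.4 CPM (n = 2), lay level with Fraction III, and the mature gates lay lower by their means. CD8 T cells had 4476 ± 41.0 CPM (n = 2), CD4 T cells 3587 ± 1070 (n = 2), B cells 3557 ± 75.3 (n = 2) and NK cells 2671 ± 85.3 (n = 2). Monocytes had 3209 ± 619 CPM (n = 2), while granulocytes had 1153 ± 204 (n = 2) and macrophages 1319 in a single library. Where 1 library held both gates, monocytes were above granulocytes, at 3647 against 1298 CPM in L5 and 2771 against 1009 CPM in L43. MK had 988 and 2813 CPM, EryA 1682 ± 330 and EryB 1298 ± 22.1 (n = 2 each). In 6 of the 38 genes (Ncl, Npm1, Nop56, Nop58, Wdr43 and Gnl3) every erythroblast library lay below every iHSC library, against 3.81% of all genes. In the MK, EryA and EryB gates these levels are those of cells with the neutrophil transcripts given above, and the part of those transcripts was not tested.

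**Figure D1:**
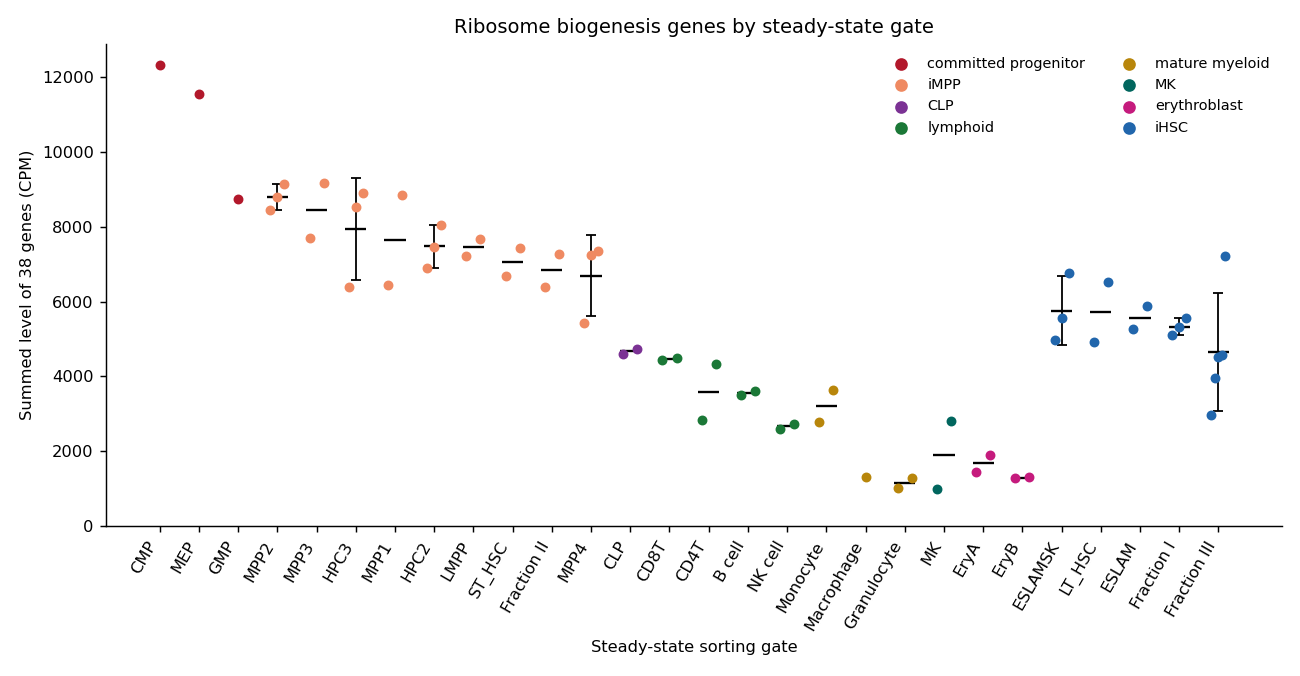
Summed level of the 38 ribosome biogenesis genes (CPM) in each steady-state sorting gate. Points are libraries coloured by class, bars are means and error bars SD (3 or more libraries). The committed gates CMP and MEP sit at 12311 and 11540 CPM, the iMPP gates between 5437 and 9173 CPM, and granulocytes near 1153 CPM, with the iHSC gates at the right between 2963 and 7222 CPM.

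Libraries that held iHSC beside another class allowed comparisons within a library. iMPP exceeded iHSC in all 5 such libraries, with 7440 against 6526 CPM in L14, 7415 against 7222 in L49, 8908 against 5423 in L50, 8825 against 5560 in L51 and 6391 against 4914 in L74. Between 24 and 30 of the 38 genes were higher in iMPP in these libraries. The share of all genes that were higher was not counted for these or the following pairs. MEP exceeded ESLAM in L15, with 11540 against 5885 CPM, and 34 of the genes were higher in MEP. Lymphoid cells of L54 had 3161 CPM, against 2963 CPM in its iHSC cells, with 22 of the genes higher in lymphoid cells, the other way round from the class means. MK of L55 had 2813 CPM, against 4570 CPM in its iHSC cells, although 21 of the 38 genes were higher in MK. CMP was above GMP in L17, with 12311 against 8737 CPM.

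The single genes did not all follow the sum. CMP was the highest gate for 17 of the 38 genes, MEP for 6, MPP2 for 5, and GMP and LT_HSC for 2 each. Among the exceptions, Rrp1b, a nucleolar factor of large subunit assembly, was highest in Fraction I (73.9 CPM) and lowest in CD8 T cells (0.934 CPM). Polr1a, the largest catalytic subunit of RNA polymerase I, was highest in LT_HSC (101 CPM, mean of 2 libraries) and lowest in CD8 T cells (1.32 CPM). Among the other stem cell gates Polr1a ran from 10.2 CPM in ESLAM to 55.8 CPM in Fraction I. Ubtf, which opens ribosomal DNA for transcription, was highest in Fraction III (124 CPM) and next in NK cells (123 CPM). Ltv1, a late factor of the small subunit, was highest in B cells (103 CPM) and lowest in EryB (12.8 CPM). Each top gate was picked from 28 gates with few libraries, and none of these orders was tested.

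Multipotent progenitors were compared with stem cells across all genes with edgeR's quasi-likelihood test. The summed level was 7424 ± 998 CPM in iMPP (n = 17) and 5274 ± 1070 CPM in iHSC (n = 12). Of the 38 genes, 5 rose in iMPP and none fell, against a background of 5% of all 13770 genes called higher and 5.52% called lower. The median log2 change of the 38 genes was 0.53, against -0.11 over all genes tested, and 32 of 38 changes were positive.

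Nhp2, a core protein of the H/ACA snoRNP, ran from 251 to 813 CPM in iMPP libraries (median 563) and from 34.5 to 501 CPM in iHSC libraries (median 213). Its log2 change was 1.14 ± 0.26 (SE, edgeR adjusted p = 0.00269), and the groups overlapped. Fbl (fibrillarin), the methyltransferase of the C/D snoRNP, ran from 131 to 282 CPM (median 221) in iMPP and from 46.4 to 308 CPM (median 104) in iHSC. Pno1, a factor of small subunit maturation, ran from 30.6 to 133 CPM (median 90.0) in iMPP and from 3.86 to 146 CPM (median 18.4) in iHSC. In both genes the iHSC sum of L49 exceeded every iMPP library, while the iHSC medians lay below all iMPP libraries. Fbl rose by 0.82 and Pno1 by 1.32 on the log2 scale (edgeR adjusted p = 0.0148 and 0.0220). Npm1 (nucleophosmin, a nucleolar histone chaperone) rose by 0.53 ± 0.17 (adjusted p = 0.0436) and Bysl, a factor of small subunit export, by 1.21 (adjusted p = 0.0423). Leaving out 1 library gave 3 to 9 calls: 9 without iHSC library L14, 8 without iMPP library L53 or L74, and 3 without any 1 of iHSC libraries L50, L54 and L76 or of iMPP libraries L4, L16, L26, L39, L42, L50, L51 and L52. With both iHSC libraries L1 and L54 left out there were 3. Limma voom with the library as a random block called 14. In the 5 libraries that held both classes alone, with the library as a term in edgeR (a paired fit chosen after the data were seen), none was called and 11 had an unadjusted p under 0.05. The median log2 change there was 0.49 with 30 positive, against 0.22 over the 10031 genes tested.

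Committed progenitors stood higher than iMPP in the sum, at 11540 CPM in L15 (MEP) and 10770 CPM in L17 (CMP with GMP), against an iHSC range of 2963 to 7222 CPM. Of the 38 genes, 11 rose and none fell relative to iHSC, against 3.51% of all genes called higher and 1.23% called lower. Over the 38 genes the median log2 change was 1.28, and over all genes tested -0.46. In 15 of the 38 genes both libraries lay above every iHSC library, against 5.03% of all genes.

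Npm1 had 3040 CPM in L15 and 2322 CPM in L17, against 459 to 1624 CPM (median 1178) in iHSC. Nhp2 had 896 and 887 CPM, against 34.5 to 501 CPM (median 213) in iHSC. Mrto4, which holds the place of a stalk protein on the nascent large subunit, had 303 and 224 CPM, against 26.9 to 143 CPM (median 83.5) in iHSC. The committed libraries did not overlap with iHSC in any of these 3 genes. Their log2 changes were 1.55 ± 0.31 for Npm1 (edgeR adjusted p = 0.00141), 2.14 ± 0.43 for Nhp2 (0.00164) and 1.98 ± 0.41 for Mrto4 (0.00181).

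The other 8 genes that rose were Ncl, Nolc1, Fbl, Nop56, Nop10, Ebna1bp2, Pno1 and Bysl. Nop56, a scaffold of the C/D snoRNP, had 480 and 466 CPM, against 91.7 to 307 CPM (median 202) in iHSC. Bysl had 78.8 and 64.3 CPM, against 3.23 to 51.8 CPM (median 8.27) in iHSC, a log2 change of 2.53 ± 0.65 (edgeR adjusted p = 0.0143). Among CLP, which were not tested, Bysl had 26.8 CPM in L28 and 120 CPM in the 7 cells of L43. Nop2, a 28S rRNA methyltransferase, had 95.5 and 95.4 CPM, within the iHSC range of 5.79 to 107 CPM (median 35.2), and did not pass the test. Dkc1 (dyskerin), the pseudouridine synthase of the H/ACA snoRNP, had 212 and 215 CPM, above the iHSC range of 1.57 to 192 CPM (median 117), without passing the test. No gene was called without L15 and 3 were without L17, where the library left was assumed to vary like the other groups. Limma voom with a library block called 29.

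Mature myeloid cells had 2056 ± 707 CPM in sum (n = 3), against 5274 ± 1070 CPM in iHSC. Of the 38 genes, 7 fell and none rose, against 4.84% of all genes called lower and 7.67% called higher. The median log2 change was -1.0, against -0.37 over all genes tested, and 5 of 38 changes were positive. Ncl (nucleolin, which binds the nascent precursor) had 75.8 CPM in L12, 135 CPM in L43 and 273 CPM in L5, against 227 to 787 CPM (median 563) in iHSC. It fell by 1.27 ± 0.34 on the log2 scale (edgeR adjusted p = 0.00920). Wdr43, of the complex that first loads on the small subunit precursor, had 30.5, 43.3 and 40.8 CPM in these libraries, against 56.3 to 228 CPM (median 140) in iHSC, and fell by 1.43 ± 0.42 (adjusted p = 0.0159). Nop14, a partner in the same precursor, averaged 13.2 ± 4.17 CPM in myeloid cells and 89 ± 57.7 CPM in iHSC, and fell by 2.18 (adjusted p = 0.0225). Of these only Wdr43 had all myeloid libraries below all iHSC libraries.

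Bop1 and Dkc1 also fell in myeloid cells. Bop1, of the complex with Pes1 and Wdr12 in large subunit assembly, had 1.68, 5.07 and 10.2 CPM in L12, L43 and L5, against 1.93 to 62.7 CPM (median 35.3) in iHSC. Dkc1 had 7.44, 23.8 and 29.9 CPM, against 1.57 to 192 CPM (median 117) in iHSC. Rrp1b and Gnl3 (nucleostemin, a nucleolar GTPase) were the other members that fell. Gnl3 and Wdr43 were the 2 genes in which every myeloid library lay below every iHSC library, against 2.77% of all genes. No gene was called without L12 or without L43, while 11 were without iHSC library L1 and 14 with both L1 and L54 left out of iHSC. With the library block of limma voom 3 were called.

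Lymphoid cells showed a smaller and mixed difference. Their sum was 3590 ± 614 CPM (n = 4), against 5274 ± 1070 CPM in iHSC, but only 2 of the 38 genes fell and none rose, against 8.73% of all genes called lower and 7.59% called higher. Wdr12 had 2.70 to 19.5 CPM (median 16.7) in lymphoid libraries, against 1.57 to 404 CPM (median 66.8) in iHSC, and fell by 2.31 ± 0.63 on the log2 scale (edgeR adjusted p = 0.00943). Rrp1b averaged 12.9 ± 6.17 CPM, against 67.9 ± 51.8 CPM in iHSC, and fell by 1.93 ± 0.62 (adjusted p = 0.0287). The 38 changes had a median of 0.05 on the log2 scale with 20 positive, which turned to -0.12 with DESeq2's size factors. Ribosomal protein genes took 262038 ± 95855 CPM in lymphoid libraries, against 224261 ± 35957 CPM in iHSC, and their part in the lower sum was not tested. Gnl3 was the 1 gene with every lymphoid library below every iHSC library, against 1.44% of all genes. Without L2, L3 or L53, 1 gene was called, and both calls ended in limma voom with a library block (0 called) and with only lymphoid and iHSC sums in the fit (0 called). Library L3, with the lowest lymphoid sum (3094 CPM), had 50339 CPM of neutrophil markers, against 364 to 2624 CPM in the other lymphoid libraries, and their part was not tested.

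**Figure D2:**
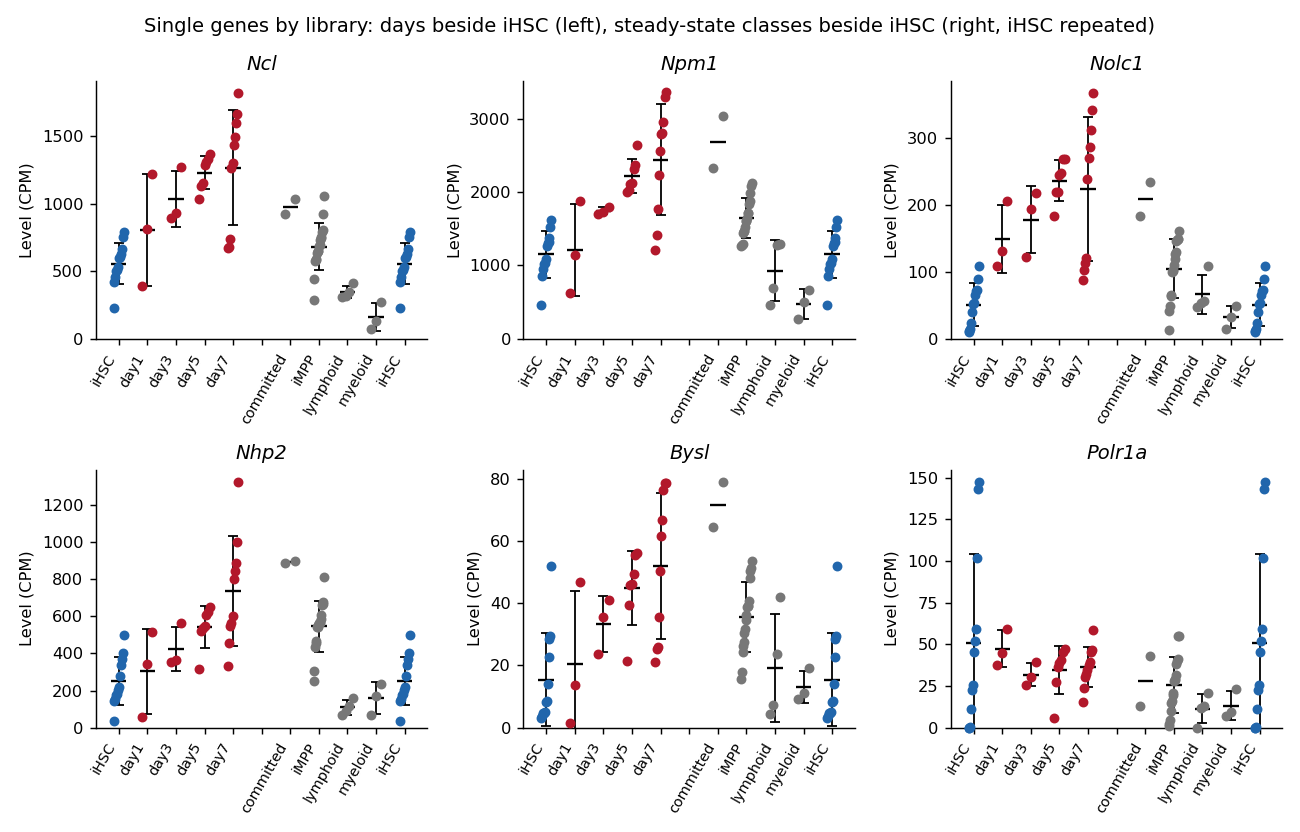
Level of 6 of the genes (CPM) in each library. Red points are transplanted cells by day with iHSC (blue) as baseline at the left, grey points are steady-state classes with iHSC repeated at the right, and bars are means with SD. Of the steady-state classes plotted, the highest libraries for Npm1, Nhp2 and Bysl are committed ones, while Polr1a spreads from 0 to 147 CPM within iHSC.

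After transplantation the summed level of the 38 genes averaged 6114 ± 3272 CPM in the 3 day 1 libraries, 8119 ± 690 in the 3 day 3 libraries, 9644 ± 576 in the 7 day 5 libraries and 9860 ± 2825 in the 10 day 7 libraries, against 5274 ± 1070 CPM in iHSC (n = 12). The 3 day 1 libraries lay far apart, at 9240 CPM in L84, 6388 in L83 and 2714 in L87. Library L87 had 13 cells, of which 38.5% were predicted lymphoid, 23.1% megakaryocyte-erythroid (tME) and 15.4% granulocyte-monocyte (tGM). The day 3 libraries had 7479 (L85), 8027 (L89) and 8850 CPM (L79), and the day 5 libraries 9191 to 10613 CPM (median 9405). Every library of days 3 and 5 lay above every iHSC library, of which the highest (L49) had 7222 CPM. Npm1, Ncl and Nop10 alone made up on average 47.3% of the sum in iHSC and 46.8% on day 7. Without them the sum averaged 2771 ± 593 CPM in iHSC, 3548 ± 1880 on day 1 and 4320 ± 457 on day 3. It was then 5146 ± 350 CPM on day 5 and 5251 ± 1514 on day 7.

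Day 7 libraries were the most spread of the later days, with a median of 10882 CPM. L59 (5384 CPM), L47 (6270) and L78 (6282) lay within the iHSC range, and the other 7 had 9760 to 12778 CPM. In L59, 43.6% of cells were of predicted tGM and 10.9% of tME types, in L47 14.9% and 10.6%, and in L78 8.33% and 11.1%. Neutrophil markers summed to 45914 CPM in L59, 37695 in L47 and 18190 in L78. L60, with 19.6% tGM and 17.6% tME cells and 35653 CPM of neutrophil markers, nevertheless had 9760 CPM. L62 and L58, with 15232 and 11297 CPM of these markers, had 11134 and 12778 CPM. In L49, L55, L61 and L63 the markers summed to 2194 CPM or less. With cells of predicted stem and multipotent types (tHSC and tMPP) alone, an alternative chosen after the data were seen, the day 7 sum was 10922 ± 1995 CPM (n = 10), from 7833 in L47 to 14065 in L58, and every library lay above every iHSC library. The same restriction gave 6581 and 9268 CPM on day 1 (L87 had too few cells), 8148 ± 686 CPM on day 3 and 9737 ± 580 CPM on day 5. tHSC cells made up 11.1% of all cells in L78 and 0% in the other day 7 libraries. Their share was 0% to 4% on day 5 and 5.71% to 14.3% on days 1 and 3. These sums thus set mostly tMPP cells beside the stem cell gates of iHSC, and the part of this mix was not tested.

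Single cells of day 7 were split more widely than these sums. Of the day 7 cells, 10% lay under 784 CPM and 10% above 14053 CPM, with a median of 9162 CPM, against a median of 4771 CPM over iHSC cells. The day 5 median was 9170 CPM. In the libraries that held both origins, day 7 cells exceeded iHSC cells by 12036 against 7222 CPM in L49 and by 12015 against 4570 CPM in L55, with 29 and 34 of the 38 genes higher. Each of these day 7 sums rested on 5 cells, and the share of all genes that were higher was not counted.

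**Figure D3:**
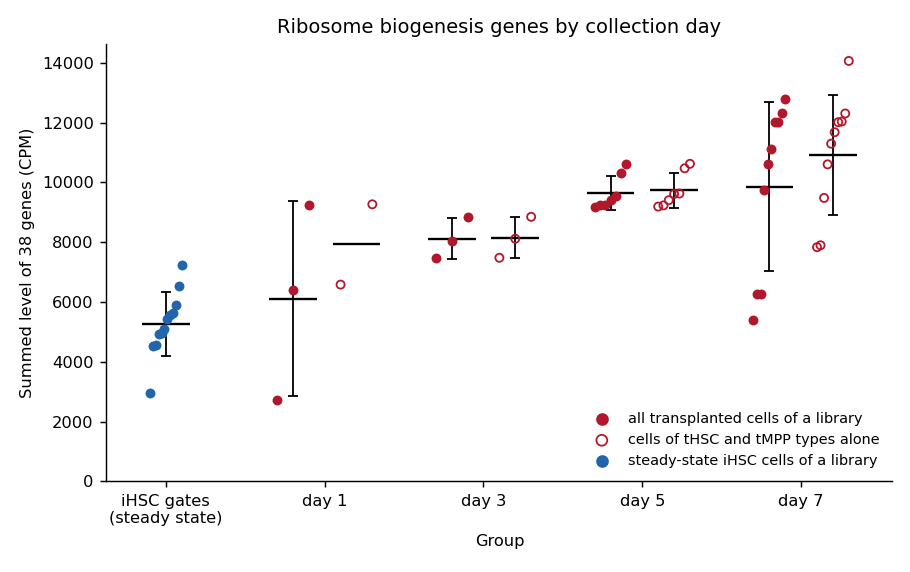
Summed level of the 38 genes (CPM) in each library by collection day, with the steady-state iHSC gates (blue) as baseline at the left. Filled red points are all transplanted cells of a library, open points its tHSC and tMPP cells alone, and bars are means with SD. Days 3 and 5 lie above the iHSC libraries throughout, and the 3 low day 7 libraries at 5384 to 6282 CPM move to 7833 CPM or more among tHSC and tMPP cells.

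The tests against iHSC follow by day. All use the same 12 iHSC libraries, so that the days are not independent of each other. On day 1, none of the 38 genes passed edgeR's test, against 3.14% of all 13353 genes called in either direction. At an unadjusted p under 0.05 there were 3, DESeq2 called 1 and limma voom 0. Over the 38 genes the median log2 change was 0.13 with 24 positive, and over all genes tested -0.26. The day 1 median was 0.42 without L87 and -0.34 without L84.

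On day 3, Nolc1 was the 1 gene that rose, against 1.01% of all genes called higher and 0.105% called lower. Nolc1 (Nopp140), a chaperone of snoRNPs in the nucleolus, had 217 CPM in L79, 194 in L85 and 122 in L89, against 9.85 to 109 CPM (median 53.2) in iHSC. Its log2 change was 1.63 ± 0.43 (edgeR adjusted p = 0.0466), and all 3 libraries lay above all iHSC libraries. Ncl, Npm1, Nolc1 and Nop56 were the 4 genes in which every day 3 library exceeded every iHSC library, against 2.12% of all genes. The median log2 change was 0.35, against -0.17 over all genes tested, with 34 positive. Limma voom with a library block called 2. The call ended without any 1 of the day 3 libraries and without any 1 of iHSC libraries L1, L50, L51, L54, L55, L73 and L74.

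On day 5, 11 of the 38 genes rose and none fell, against 4.28% of all genes called higher and 3.29% called lower. They were all 5 nucleolar proteins (Ncl, Npm1, Nolc1, Ddx21, an RNA helicase, and Mybbp1a), all 3 C/D snoRNP proteins (Fbl, Nop56 and Nop58), Gar1 and Nhp2 of the H/ACA snoRNP, and Rrp12, a factor of subunit export. No RNA polymerase I gene and no large subunit factor was among them. The median log2 change was 0.76, against -0.12 over all genes tested, with 37 of 38 positive.

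Nolc1 had 183 to 268 CPM (median 244) on day 5, against 9.85 to 109 CPM (median 53.2) in iHSC. Ncl had 1034 to 1364 CPM (median 1288), against 227 to 787 CPM (median 563) in iHSC. Fbl had 210 to 390 CPM (median 295), against 46.4 to 308 CPM (median 104) in iHSC. The groups did not overlap in Nolc1 and Ncl, and overlapped in Fbl through the highest iHSC library. The log2 changes were 2.13 ± 0.34 for Nolc1 (edgeR adjusted p = 8.9e-05), 1.06 ± 0.20 for Ncl (6.4e-04) and 1.35 ± 0.28 for Fbl (0.00158).

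In 5 genes (Ncl, Npm1, Nolc1, Nop56 and Nop58) all 7 day 5 libraries lay above all iHSC libraries, against 1.19% of all genes. Npm1 had 1997 to 2646 CPM (median 2119), against 459 to 1624 CPM (median 1178) in iHSC. Nop56 had 369 to 659 CPM (median 406), against 91.7 to 307 CPM (median 202) in iHSC. The count was 6 without L69 or L71 and 7 without L72, 13 among tHSC and tMPP cells alone, 19 in limma voom with a library block, and 11 without iHSC libraries L1 and L54 and day 1 library L87.

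On day 7, 19 of the 38 genes rose and none fell, against 10.4% of all genes called higher and 10.4% called lower. The median log2 change was 0.94, against -0.10 over all genes tested, and 37 of 38 changes were positive. All 5 nucleolar proteins, all 3 C/D snoRNP proteins and 3 of 4 H/ACA proteins (Dkc1, Gar1 and Nhp2) rose. So did 4 of 11 large subunit factors (Bop1, Ebna1bp2, Mrto4 and Nip7) and 4 of 11 small subunit factors (Rrp12, Imp4, Pno1 and Bysl). None of the 4 RNA polymerase I genes passed the test.

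Nolc1 had 87.6 to 367 CPM (median 254) on day 7, against 9.85 to 109 CPM (median 53.2) in iHSC. Ncl had 672 to 1818 CPM (median 1367), against 227 to 787 CPM (median 563) in iHSC. Npm1 had 1207 to 3357 CPM (median 2680), against 459 to 1624 CPM (median 1178) in iHSC. For each of the 3 genes the medians lay far apart and the lowest day 7 libraries reached into the iHSC range. In none of the 38 genes did every day 7 library lie above every iHSC library, and the same held for day 1 and iMPP. The share of all genes that did so is not given here. The log2 changes were 2.19 ± 0.32 for Nolc1 (edgeR adjusted p = 4.9e-06), 1.25 ± 0.19 for Ncl (5.6e-06) and 1.14 ± 0.18 for Npm1 (1.2e-05).

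Among the snoRNP proteins, Nhp2 averaged 737 ± 295 CPM on day 7 and 250 ± 131 CPM in iHSC, and rose by 1.62 ± 0.29 on the log2 scale (edgeR adjusted p = 1.0e-04). Fbl had 109 to 401 CPM (median 273), against 46.4 to 308 CPM (median 104) in iHSC, and rose by 1.26 (adjusted p = 4.7e-04). Dkc1 had 89.6 to 297 CPM (median 220), against 1.57 to 192 CPM (median 117) in iHSC, and rose by 0.93 (adjusted p = 0.0338). Nop10, the smallest protein of the H/ACA core, did not pass the test, at 904 ± 300 CPM on day 7 and 795 ± 326 CPM in iHSC.

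Among the assembly factors, Bop1 had 28.2 to 115 CPM (median 62.1) on day 7, against 1.93 to 62.7 CPM (median 35.3) in iHSC, and rose by 1.05 (edgeR adjusted p = 0.0275). Bysl had 21 to 78.6 CPM (median 55.8), against 3.23 to 51.8 CPM (median 8.27) in iHSC, and rose by 1.80 ± 0.45 (adjusted p = 0.00388). Pno1 averaged 131 ± 51.8 CPM, against 34.7 ± 39.7 CPM in iHSC, and rose by 2.0 ± 0.46 (adjusted p = 0.00165). Mrto4 averaged 216 ± 107 CPM, against 83.1 ± 36.7 CPM in iHSC, and rose by 1.42 (adjusted p = 5.7e-04). Nop2 had 46.7 to 114 CPM (median 79.7), against 5.79 to 107 CPM (median 35.2) in iHSC, and did not pass. Wdr43 averaged 174 ± 54.4 CPM on day 7 and 145 ± 44.9 CPM in iHSC, and did not pass either.

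The RNA polymerase I genes were low and variable in single libraries. Polr1b, the other catalytic subunit of the enzyme, had 2.88 to 86 CPM (median 38.3) on day 7, against 1.33 to 58.7 CPM (median 8.79) in iHSC, a log2 difference of 1.42 that did not pass the test. Polr1a averaged 36.4 ± 12.1 CPM on day 7 and 50.8 ± 53.3 CPM in iHSC. Rrn3, the initiation factor, averaged 31.5 ± 11.3 CPM and 25.7 ± 23.8 CPM in the same groups, and Ubtf 101 ± 58.7 CPM and 88.1 ± 58.4 CPM. None of the 4 was called in any of the 10 comparisons. Leaving out any 1 library gave 15 to 22 calls on day 7, tHSC and tMPP cells alone gave 24, and leaving out L1, L54 and L87 gave 21.

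**Figure D4:**
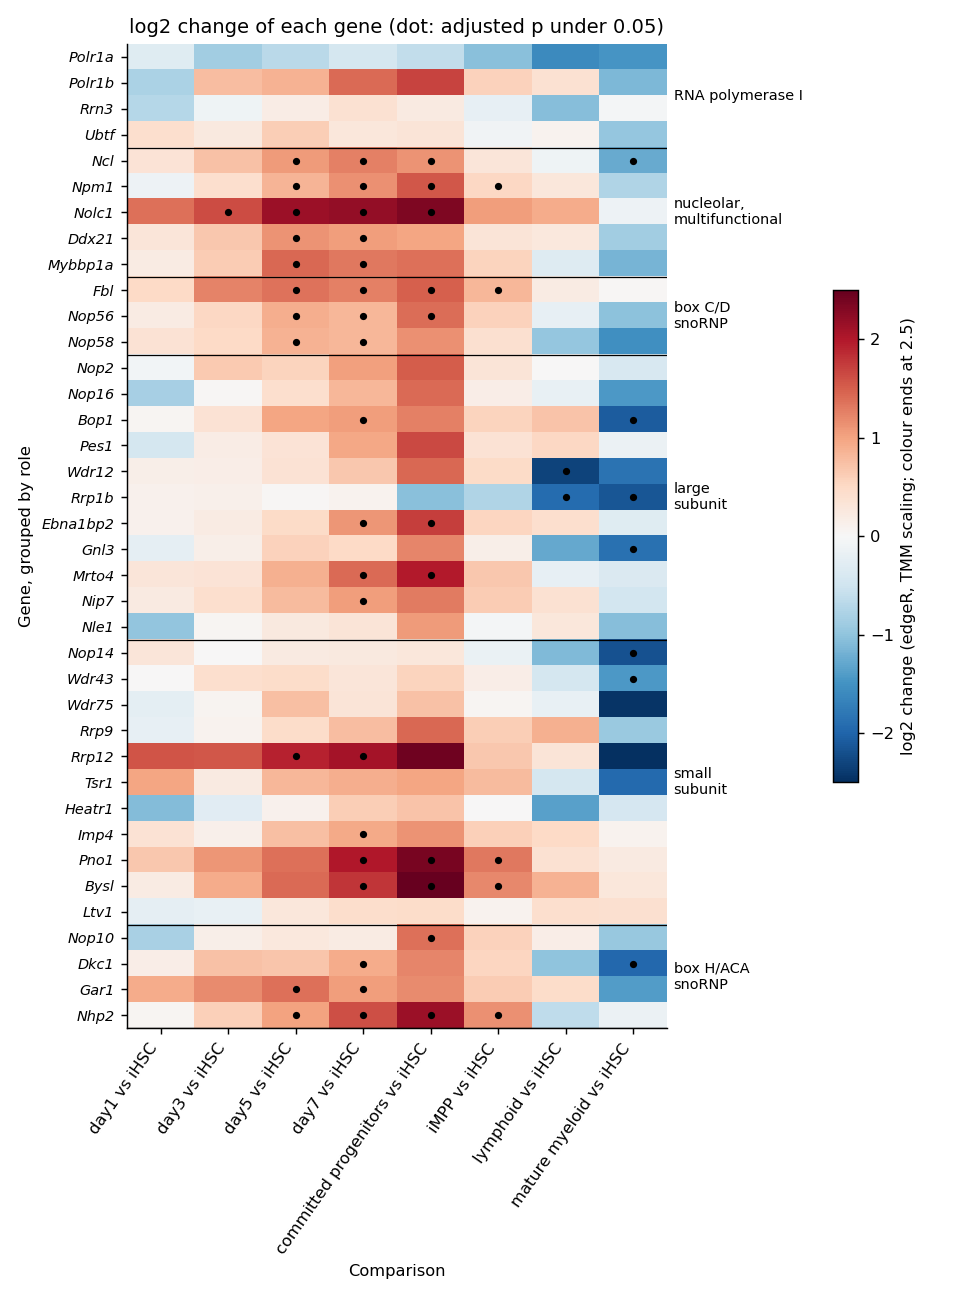
Log2 change of each of the 38 genes in each comparison with iHSC, from edgeR, with genes grouped by role and comparisons in columns. Red is higher and blue lower than iHSC, and black dots mark adjusted p under 0.05. The 19 dots of day 7 and the 11 of committed progenitors fall on nucleolar, snoRNP and subunit factors, the 7 of mature myeloid cells are blue, and the RNA polymerase I rows have no dot.

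Days were also compared with each other. Between day 7 and day 5 none of the 38 genes passed edgeR's test, with 0 at an unadjusted p under 0.05, against 0.404% of all genes called in either direction. DESeq2 and limma voom also called none, and voom had 1 gene at an unadjusted p under 0.05. Changes of the 38 genes had a median of 0.18 (27 positive), against 0.01 over all genes tested. Between day 7 and day 1, Npm1 alone rose, against 0.509% of all genes called higher and 1.54% called lower. It had 1207 to 3357 CPM (median 2680) on day 7, against 624 CPM in L87, 1141 in L83 and 1876 in L84 on day 1. Its log2 change was 1.27 ± 0.30 (edgeR adjusted p = 0.0163), and the groups overlapped. The call ended in limma voom with a library block (0 called) and without L83 or L87, and 3 genes were called without L84.

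The libraries of days 1 and 3 carry the numbers L79 to L89, while those of days 5 and 7 lie between L47 and L72 except for L86 (day 5) and L78 (day 7). Library number and day are therefore largely confounded and cannot be told apart. Within libraries L73 and above no gene was called in any day comparison, with 1 library of day 5 (L86, 9191 CPM) and 1 of day 7 (L78, 6282 CPM) left. Organ was also uneven: 4 of 7 day 5 libraries were from spleen alone, against 0 of 10 on day 7. Its part was not tested.

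Predicted types, which the authors assigned from expression, were described without a test. Among transplanted types with a library of at least 5 such cells, the sum was highest in tMPP3, at 11832 ± 2949 CPM (5 libraries, 6893 to 14640). It was 9749 ± 1289 in tMPP2 (18 libraries), 9473 ± 1340 in tMPP5 (12), 8100 ± 904 in tMPP1 (13) and 7629 ± 1624 in tMPP4 (4). The 6 transplanted tCP1 cells, fewer than 5 in any library, had 14429 CPM when pooled, against 12753 CPM in pooled tMPP3 cells. In a single library (L85, 6 cells) tHSC1 had 4276 CPM. The 15 transplanted tHSC2 cells, also fewer than 5 in any library, had 8419 CPM when pooled, against 5607 CPM in pooled steady-state tHSC2 cells. The differentiated types tGM1 and tME1 lay far lower, at 989 ± 334 CPM (5 libraries) and 697 ± 211 CPM (4 libraries). The transplanted tME1 cells had 145662 CPM of neutrophil markers, 71.9 CPM of erythroid markers and 68.7 CPM of megakaryocyte markers, which goes against a megakaryocyte-erythroid identity. The tGM1 cells had 125322 CPM of neutrophil markers.

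Transplanted cells of tMPP1, tMPP2, tMPP3 and tMPP5 had higher sums than steady-state cells of the same type. The steady-state values were 7070 ± 980 CPM for tMPP1 (5 libraries), 7772 ± 962 for tMPP2 (8), 8339 ± 853 for tMPP3 (4) and 6981 ± 622 for tMPP5 (5). For tMPP4 the order was the other way, with 7629 ± 1624 CPM in transplanted and 7925 ± 1116 CPM (8 libraries) in steady-state cells. For tMPP1 and tMPP4 the difference was about or under the spread between libraries. Among steady-state types, tCP1 was the highest at 12086 ± 772 CPM (2 libraries), and tHSC1 had 5453 ± 405 CPM (6 libraries).

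Ncl was also higher in transplanted cells of these 4 types, as a mean over libraries. It had 1626 ± 367 CPM in transplanted and 741 ± 79.5 CPM in steady-state tMPP3, 1277 ± 234 and 726 ± 157 CPM in tMPP2, 1249 ± 227 and 654 ± 80.5 CPM in tMPP5, and 1006 ± 178 and 725 ± 95.8 CPM in tMPP1 (SD over the libraries given above). In tMPP4, Ncl had 899 ± 361 and 754 ± 266 CPM, a difference under the spread between libraries. Nolc1 had 289 ± 109 CPM in transplanted and 171 ± 26.2 CPM in steady-state tMPP3. Polr1b had 37.2 ± 20.1 CPM in transplanted and 36.4 ± 19.9 CPM in steady-state tMPP3, a difference far under the spread between libraries. Ncl and Nolc1 were called higher on day 7 in these same data, and other members differed. Nop10 was lower in transplanted cells of every tMPP type, with 870 against 1360 CPM in tMPP3 and 994 against 1156 CPM in tMPP2. Nhp2 was higher in transplanted tMPP2 and tMPP3 and lower in tMPP1, tMPP4 and tMPP5. The number of members that were higher was not counted by type.

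By day, mean tMPP2 sums were higher on days 5 and 7 than on day 3, and mean tMPP1 sums were not. The tMPP2 sum was 9077 CPM in 1 library of day 1, 8075 ± 965 in 3 of day 3, 10218 ± 612 in 6 of day 5 and 10373 ± 1419 in 5 of day 7. The tMPP1 sum was 9027 CPM in 1 library of day 1, 8182 ± 721 in 3 of day 3, 8143 ± 873 in 6 of day 5 and 6549 in 1 of day 7. For tMPP3 it was 6893 CPM in the 5 cells of day 5 library L66 and 13067 ± 1197 CPM in 4 libraries of day 7. tMPP5 had 9638 ± 815 CPM in 6 libraries of day 5 and 8945 ± 2136 CPM in 4 of day 7. None of these differences by type was tested. tMPP3 cells made up 78.3% of L62, 59.5% of L58 and 56.3% of L61, which were among the 5 highest day 7 libraries, and 1.82% of L59, the lowest. The other 2 of the 5 highest, of 5 cells each, had few or none, with 20% in L49 and 0% in L55.

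**Figure D5:**
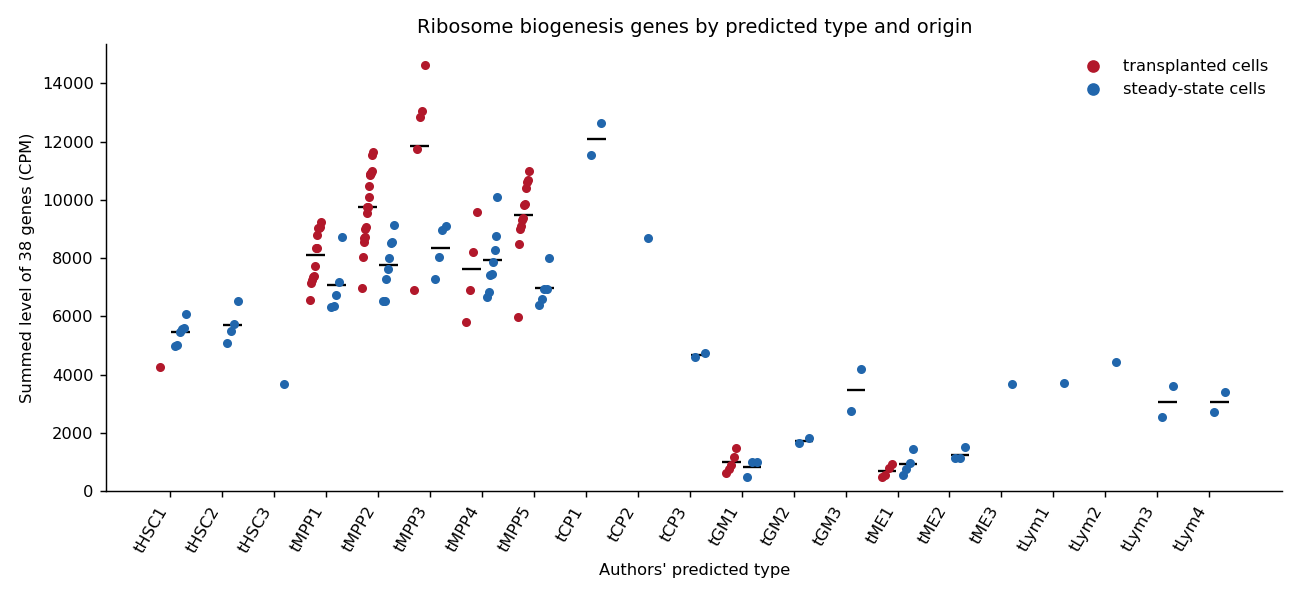
Summed level of the 38 genes (CPM) by the authors' predicted type, in transplanted (red, left) and steady-state cells (blue, right) of each type. Points are libraries with at least 5 cells of the type and bars are means. Transplanted tMPP3 cells reach 14640 CPM, and the tGM1 and tME1 types lie between 485 and 1470 CPM in both origins.

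A list of other ribosome biogenesis genes, of which 84 were tested by day, gave lower counts. Of these, 13 rose and 1 fell on day 7, and 6 rose on day 5. Of all genes, 10.4% were called higher on day 7 and 4.28% on day 5. None was called on day 3, and 1 fell on day 1. On day 7 the named ones were Lyar, a nucleolar growth regulator (log2 change 1.70 ± 0.29, edgeR adjusted p = 5.1e-05), Eif6, which keeps the subunits apart (1.06, 0.00158), Wdr74 (1.26, 0.00200) and Nop9 (1.87, 0.00213), while Surf6 fell by 1.5 (0.0234). On day 5 they were Urb1 (2.54), Dcaf13 (1.43), Lyar (1.14) and Gtpbp4 (1.27), and on day 1 Imp3, a U3 snoRNP protein, fell by 1.29 (0.0249). Of 85 tested at steady state, 2 rose in iMPP (Lyar by 0.94 and Nop9 by 1.21) and 5 did in committed progenitors, among them Lyar (2.28), Polr1d (1.42), Fcf1 (1.5) and Wdr74 (1.76). Of all genes, 5% were called higher in iMPP and 3.51% in committed progenitors. In myeloid cells 5 of the list fell, among them Imp3 (-1.35) and Gnl2 (-2.46), against 4.84% of all genes called lower. In lymphoid cells Emg1, Polr1d and Urb1 rose and Nob1 fell, against 7.59% of all genes called higher and 8.73% called lower.

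The MYC network (12 genes, 11 of them tested by day) had no call on any day. Myc itself differed by -0.22 ± 0.38 on the log2 scale on day 7 and by -0.31 ± 0.43 on day 5 (edgeR adjusted p = 0.732 and 0.721). In myeloid cells Myc fell by 2.49 ± 0.70 (adjusted p = 0.0128) and Mxd1, a MYC antagonist, rose by 3.14 ± 0.87 (adjusted p = 0.0112). Mycn fell and Mxd3 and Mycl rose in these cells as well. In iMPP Mxd3 and Mycl rose, and in lymphoid cells Mlx rose and Mycn fell. Of all genes, 7.67% were called higher and 4.84% lower in myeloid cells, and 5% higher in iMPP. In lymphoid cells these shares were 7.59% higher and 8.73% lower. In committed progenitors no gene of the list passed the test.

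Ribosomal protein genes, whose products these factors assemble, mostly fell or did not pass the test after transplantation. Of 80 tested, 44 fell on day 1, 2 fell on day 3, 15 fell with 1 risen on day 5, and 26 fell with 2 risen on day 7. Their summed level was 143937 ± 18952 CPM at day 1, 205756 ± 10359 CPM at day 5 and 177034 ± 23624 CPM at day 7, against 224261 ± 35957 CPM in iHSC. With ribosomal protein genes taken out of the total, the sum of the 38 genes was 12052 CPM on day 7 and 12147 on day 5, against 6836 CPM in iHSC. Cell cycle genes rose beside the 38 genes. Of 27 genes of DNA replication and G1/S, 4 rose on day 1 and 5 on day 3, but 20 at the day 5 and 22 at the day 7 collection. Of 27 genes of G2/M and mitosis, 20 rose at day 1, 23 at day 3, 24 at day 5 and 26 at day 7. Of all 13353 genes, 312 were called higher and 107 lower on day 1, and 135 and 14 on day 3. There were 572 and 439 on day 5, and 1394 and 1390 on day 7. The part of the cell cycle in the levels of the 38 genes was not tested. HSC markers summed to 705 ± 570 CPM at day 1, 824 ± 133 CPM at day 3, 473 ± 70.3 CPM at day 5 and 200 ± 110 CPM at day 7, against 1465 ± 428 CPM in iHSC.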

How the data were processed

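The deposited table held whole-number counts per gene and cell, not normalized by the authors, for 23154 genes in 2879 cells. Per the submitters' processing notes, the build was mm10 and the tools included TopHat for alignment and HTSeq for counting, without versions. Whether reads or molecules were counted is not given in the sources used here. Gate, collection day and predicted type came from the deposited cell annotation, which covered 2301 cells. The 578 other cells were not analysed here. The labels of libraries L4 and L49 named populations that differed from this annotation. No cell name was repeated (0 cases), and no doublet caller was run. In 3 libraries that pooled days (L77, L80 and L88), the day of 120 transplanted cells was unknown, so no comparison by day used them.

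Counts were summed per library and group (at least 5 cells per sum), with the library as replicate. CPM here are counts scaled to 1000000 per sum, without further factors. The labels do not say which animals gave which library, so p-values measured the spread between libraries. Days and iHSC were fitted together (35 sums, 13353 genes), and the steady-state classes in another fit (41 sums, 13770 genes). Both used edgeR 4.0.16 in R 4.3.3 (filterByExpr, TMM factors, two-sided quasi-likelihood F tests) with Benjamini-Hochberg adjusted p under 0.05 called. The steps were tested on simulated data. Alternatives used DESeq2 1.42.0, limma 3.58.1, other filters and other sets of libraries. All 38 members could be named. Values per library were given for Ncl, Npm1, Nolc1, Polr1b, Fbl, Nop56, Dkc1, Bysl, Bop1, Nop2 and up to 3 called members each way per comparison. Up to 4 called genes of the other ribosome biogenesis list each way were named. The members and lists were chosen with earlier results of these data known.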

Additional observations from a re-analysis of the deposited data

Results flagged for a closer look

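The summed level by group or gate, and the levels of 10 named members by group, were searched in 34 sets of 4 to 10 libraries for a single library far from the others. The gap to its nearest neighbour was compared with the range of the set (Dixon's test). Chance flags about 1 in 20 such sets, and 3 values in 2 libraries stood apart. Nolc1 had 109 CPM in lymphoid library L53, against 47 to 56.9 CPM in the other lymphoid libraries. In day 5 library L66, which held 8 cells from spleen, Nop56 was highest with 659 CPM (group median 406) and Dkc1 was lowest with 48.2 CPM (group median 217). L66 was also the day 5 library with the most neutrophil marker counts (18047 CPM), and 62.5% of its cells were of type tMPP3. The part of its cell number and cell types in these values was not tested.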

How the results depend on the processing

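Of 1609 values of single called genes under the alternatives, 1296 kept their direction and stayed called, 309 kept their direction without a call, and 4 turned. Those 4 were Bop1 (-0.10), Rrp12 (-1.58), Ddx21 (-0.14) and Nip7 (-0.14) on day 7 within libraries L73 and above, where 1 day 7 library is left. The counts of genes called out of 38 moved as follows. For day 1, DESeq2 gave 1, as did leaving out L87, L1 and L54, an alternative chosen after the data were seen. For day 3 there were 0 with DESeq2's size factors in edgeR (RLE), with DESeq2, with at least 10 cells per sum, with only the compared groups and within libraries L73 and above. There were 2 for day 3 with limma voom and among tHSC and tMPP cells alone, a setting also chosen after the data were seen. For day 5 there were 19 with voom, 6 with only the compared groups and 0 within L73 and above, and for day 7 there were 0 within L73 and above. For day 7 against day 1 there were 2 without the filter on low counts, and 0 with voom, with at least 10 cells, with only the compared groups, within L73 and above, and without L87. For iMPP there were 3 with RLE, 14 with voom, 3 with at least 10 cells, 3 without L1 and L54 and 0 in the paired fit below. For committed progenitors there were 5 with RLE, 29 with voom, 4 with only the compared groups and 0 without libraries holding both groups. For myeloid cells there were 13 with RLE, 16 with DESeq2, 3 with voom, 13 with at least 10 cells, 2 with only the compared groups and 14 without L1 and L54. For lymphoid cells there were 4 with DESeq2, 0 with voom, 4 with at least 10 cells and 0 with only the compared groups. The causes were not tested. RLE moved the median of all genes from -0.10 to -0.31 on day 7 and from -0.46 to -0.74 in committed progenitors. The share of all called genes that were higher also moved. With TMM, with RLE and with DESeq2 it was 50.1%, 35.5% and 32.3% on day 7, 56.6%, 44.7% and 34.6% on day 5, 90.6%, 84.3% and 44.2% on day 3, 74.5%, 79.3% and 42.9% on day 1, 24.9%, 7.28% and 31.9% between days 7 and 1, 47.6%, 34.0% and 38.3% in iMPP, 74.1%, 57.3% and 20.4% in committed progenitors, 61.3%, 53.7% and 30.2% in myeloid and 46.5%, 39.4% and 24.3% in lymphoid cells.

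Leaving out 1 library in turn gave 0 to 1 calls for day 1, 0 to 1 for day 3, 6 to 12 for day 5, 15 to 22 for day 7, 0 to 0 for day 7 against day 5, 0 to 3 for day 7 against day 1, 3 to 9 for iMPP, 0 to 13 for committed progenitors, 0 to 11 for myeloid and 1 to 3 for lymphoid cells. For the sums it gave 4551 to 7814 CPM on day 1, 7753 to 8438 on day 3, 9483 to 9720 on day 5, 9535 to 10357 on day 7, 10770 to 11540 in committed progenitors, 7332 to 7549 in iMPP, 4602 to 4743 in CLP, 3312 to 3755 in lymphoid cells, 1719 to 2424 in myeloid cells, 988 to 2813 in MK, 1349 to 1666 in erythroblasts and 5097 to 5484 in iHSC. Without ribosomal protein genes in the total the sums were 10142 CPM on day 3, 12147 on day 5, 14728 in committed progenitors, 9401 in iMPP, 5734 in CLP, 4956 in lymphoid cells and 6836 in iHSC. As a mean over cells they were 8785 CPM on day 5 and 10297 in committed progenitors. The labels' replicate numbers do not pair the groups, but a library can hold both. A paired fit of the 5 libraries with iMPP and iHSC, with the library as replicate block, called 0 genes, with 5 pairs and fewer genes tested. For the other comparisons limma voom took the library as a random block. With 2 or 3 libraries in several groups, genes of a few CPM could not be resolved.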
